A study of Mus musculus with 30 samples.

Results

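Retinoids are vitamin A and the compounds made from it. Retinol travels in blood bound to the carrier Rbp4, is oxidised to retinal by alcohol dehydrogenases such as Adh1 and by retinol dehydrogenases, and is then oxidised to retinoic acid by retinaldehyde dehydrogenases such as Aldh1a1 and Aldh1a2. Retinoic acid is held in the cytoplasm by Crabp1 and Crabp2 and acts in the nucleus through the retinoic acid receptors and their retinoid X receptor partners. In the adult rodent brain, Aldh1a2 is known as a gene of the meninges, the membranes around the brain.

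The genes described here are Adh1, Aldh1a1, Aldh1a2, Rbp4, Crabp1 and Crabp2, chosen by name and not by their values. They are 6 of the 28146 gene names and other identifiers that the array's annotation gives to its probes. Of 41174 probes on the array, 8 carried a name of these genes, 3 of them Adh1 and 1 for each of the others. Of these 8 probes, 7 passed the filter on dim probes, which kept a probe if, in at least 1 genotype, the image software had marked it as well above background on a share of 0.5 or more of the arrays. The eighth, an Adh1 probe, was above background on none of the 30 arrays.

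RNA from the hypothalamus of single mice was measured on 1-colour Agilent arrays of the mouse genome. Boxhill mice (Per3 5/5) and Coach mice (Per3 4/4) are separate C57BL/6 knock-in lines in which an exon of mouse Per3, a clock gene, was replaced by the human exon with the longer or the shorter repeat, and Wildtype mice carried the mouse sequence. The study's methods describe male mice, gene targeting in Bruce4 embryonic stem cells with chimeras bred to C57BL/6J, and knock-in and Wildtype lines bred from the same conditional mice through a ubiquitous Cre that neither kept. All mice lived in cycles of 3.5 h light and 3.5 h dark and were sampled in the light of cycle 17. The arrays fell into 2 runs that differ in scanner and in the columns written: run 1 held 7 Boxhill arrays and Wildtype replicates 1 to 7, and run 2 held 8 Coach arrays and Wildtype replicates 8 to 15. Each knock-in line was therefore compared with the Wildtype arrays of its own run. Every run used 4 slides, as barcode and scan tell them apart, and each slide held both genotypes of its run. In run 2, 4 pairs of arrays carried the same barcode and position under different scans, Coach 5 with Wildtype 14 among them. They were kept as separate arrays, since the correlation of their spots was 0.966 to 0.982, against 0.961 to 0.992 for the other pairs of the run.

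The share of spots well above background was 58.6% to 74.6% per array, lowest on Coach 5, whose 75th percentile of intensity, 347, was also the lowest. Of 14 listed genes of hypothalamic neurons, 13 passed the filter and 11 were above background on all 30 arrays. On Wildtype 10 the mean of these genes was lower than the Wildtype mean of its run by a log2 difference of -2.13. On Wildtype 14 the mean of the anterior pituitary genes differed from that of its run by 6.77. The values below are levels on the log2 scale with the array's own 75th percentile set to 0. They compare arrays for 1 probe and do not compare genes. In tissue blocks such as these, fewer cells of a type and less RNA per cell cannot be told apart.

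The 3 Adh1 probes are shown because the comparisons turn on 2 of them, which cover neighbouring stretches of 1 transcript, while the other lies on the opposite strand. The capitals mark the 30 bases that the first and the second probe share, so these are not independent measurements.
A_52_P629895: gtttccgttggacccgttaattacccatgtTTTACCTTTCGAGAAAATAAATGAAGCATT
A_51_P428555: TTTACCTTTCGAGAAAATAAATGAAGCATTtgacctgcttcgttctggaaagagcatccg
A_52_P835985: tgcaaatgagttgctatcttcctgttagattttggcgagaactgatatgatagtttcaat
The annotation, on build mm9, places the first probe at chr3:137952821-137952880. It places the second at chr3:137952851-137953504, a span of 654 bases for a probe of 60, so its bases are not contiguous in the genome. Both are assigned to the RefSeq transcript of Adh1. The dim probe lies at chr3:137945024-137945083, is listed in descending order, and is assigned to a separate cDNA. It was not used as a measure of Adh1. The other probes lie at chr19:38191129-38191188 (Rbp4), chr19:20717764-20717823 (Aldh1a1), chr9:71143931-71143990 (Aldh1a2), chr9:54616192-54616251 (Crabp1) and chr3:87752682-87752741 (Crabp2).

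Rbp4, the carrier of retinol in blood, did not differ detectably between genotypes. Its level was 0.09 at the lowest, 0.78 at the median and 1.29 at the highest in Boxhill, against 0.24, 0.55 and 1.20 in the Wildtype arrays of run 1. In run 2 it was 0.61, 1.10 and 2.40 in Coach, against 0.62, 1.12 and 1.96 in Wildtype. The groups overlapped in both runs, and Coach 5 and Wildtype 14 were the highest arrays of their groups. The change, knock-in minus Wildtype on the log2 scale, was 0.10 in Boxhill (95% interval -0.40 to 0.60) and 0.04 in Coach (95% interval -0.43 to 0.50).

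Adh1, an alcohol dehydrogenase that oxidises retinol as well as ethanol, had the largest difference from Wildtype of the 6 genes, in Boxhill. On the first probe its level was -4.44 at the lowest, -3.46 at the median and -2.46 at the highest in Boxhill, against -3.90, -3.05 and -0.77 in Wildtype. Wildtype 1 and Wildtype 6 stood apart at -0.77 and -0.87, while the other 5 Wildtype arrays lay between -3.90 and -2.81, within the range of Boxhill. The change was -0.91 ± 0.42 (SE; 95% interval -1.77 to -0.06; n = 7 and 7), with 6 of 7 Boxhill arrays below the Wildtype mean. On the second probe, which was above background on all arrays but Boxhill 7, the level was -5.64, -4.88 and -3.83 in Boxhill against -4.90, -4.19 and -2.02 in Wildtype. The change there was -1.06 ± 0.40 (SE; 95% interval -1.88 to -0.25), with 7 of 7 Boxhill arrays below the Wildtype mean and 3 below the whole Wildtype range. Neither change passed the threshold: limma gave unadjusted p = 0.0366 and 0.0124 and an adjusted p of 0.796 for each.

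With Wildtype 1 and Wildtype 6 left out, a choice made after their levels were seen, the Adh1 change in Boxhill was -0.19 on the first probe (p = 0.565 by limma) and -0.45 on the second (p = 0.208 by limma). The probes disagreed on 1 array: the first read higher than the second by 0.97 to 2.10 on all arrays but Wildtype 7, where it read lower, with a difference of -0.20.

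In run 2 the Adh1 changes were near 0, with wide intervals. The level on the first probe was -3.27 at the lowest, -2.86 at the median and -1.32 at the highest in Coach, against -3.43, -2.87 and -1.63 in Wildtype. On the second probe it was -4.96, -4.43 and -2.65 in Coach, against -5.05, -4.41 and -3.11 in Wildtype. The groups overlapped, and the highest arrays on both probes were single ones, Coach 5 and Wildtype 14. The change was 0.12 (95% interval -0.68 to 0.92) on the first probe and 0.08 (95% interval -0.68 to 0.84) on the second. The Boxhill change minus the Coach change was -1.03 (limma p = 0.0802) and -1.14 (limma p = 0.0455) on the 2 probes, with an adjusted p of 1.0 for each.

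The retinaldehyde dehydrogenases, which make retinoic acid, did not differ detectably between genotypes. Aldh1a1 lay at 4.14, 4.52 and 5.06 (lowest, median and highest) in Boxhill, against 4.14, 4.52 and 4.93 in Wildtype, and at 3.54, 3.85 and 4.76 in Coach, against 2.91, 3.99 and 4.97. The changes were -0.05 (95% interval -0.54 to 0.44) in Boxhill and 0.07 (95% interval -0.39 to 0.53) in Coach. Aldh1a2 lay at -1.42, -0.71 and 0.68 in Boxhill, against -1.41, -0.52 and 0.16 in Wildtype, and at -0.87, 0.94 and 1.55 in Coach, against -0.26, 0.57 and 1.33. The changes were -0.01 (95% interval -0.70 to 0.67) in Boxhill and 0.09 (95% interval -0.55 to 0.73) in Coach. For both genes the arrays of the genotypes overlapped over most of their range.

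**Figure D1:**
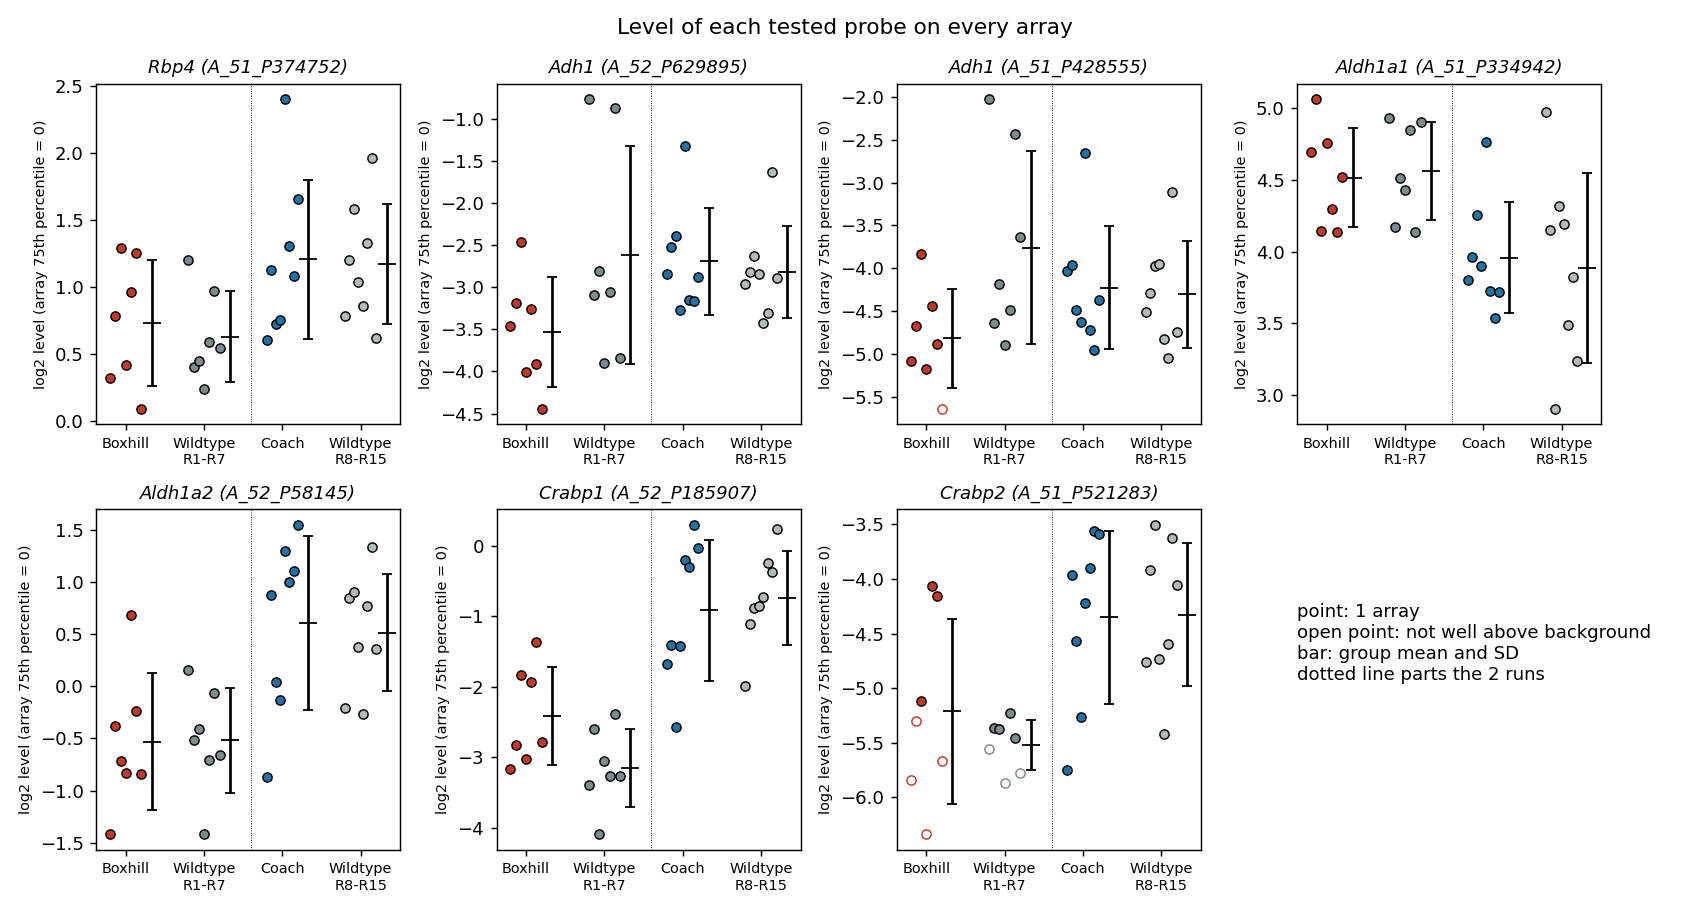
Log2 level of the 7 tested probes on every array (y axis, array 75th percentile = 0) in the 4 groups (x axis). Each point is 1 array, open where the spot was not well above background, and bars give the group mean and SD. Wildtype 1 and Wildtype 6 stand at the top of both Adh1 panels, and in run 2 Coach 5 and Wildtype 14 are the highest.

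Crabp1, which binds retinoic acid in the cytoplasm, was higher in most Boxhill arrays, below the threshold. Its level was -3.16, -2.78 and -1.36 (lowest, median and highest) in Boxhill, against -4.10, -3.26 and -2.39 in Wildtype. The 3 highest Boxhill arrays lay above every Wildtype array of the run and 6 of 7 lay above the Wildtype mean. These 3 arrays, Boxhill 6, 3 and 5, also had the 3 highest means of the hypothalamic neuron genes in Boxhill, at 1.04, 0.45 and 0.51 relative to Wildtype of the run, and the part of those genes in the Crabp1 values was not tested. The change was 0.74 ± 0.38 (SE; 95% interval -0.05 to 1.52; limma p = 0.0658, adjusted p = 0.796). In run 2 the level was -2.58, -0.86 and 0.30 in Coach, against -1.99, -0.79 and 0.24 in Wildtype, a change of -0.17 (95% interval -0.91 to 0.56). The Boxhill change minus the Coach change was 0.91 (limma p = 0.0952, adjusted p = 1.0).

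Crabp2, which carries retinoic acid towards its receptors, was dim in run 1, where it was well above background on 3 of 7 Boxhill and 4 of 7 Wildtype arrays. It was above background on all 8 Coach arrays and all 8 Wildtype arrays of run 2. Its level was -6.34, -5.30 and -4.06 in Boxhill, against -5.87, -5.46 and -5.23 in Wildtype, where a value not above background is only a bound. In run 2 it was -5.75, -4.09 and -3.56 in Coach, against -5.42, -4.32 and -3.50 in Wildtype. The 3 Boxhill arrays with a measured level were all above the highest Wildtype array of run 1. Being above background selects the brightest arrays, so these 3 do not stand for their group. The other 4 Boxhill arrays were not well above background, and the lowest of them read -6.34, below every Wildtype array of run 1. The changes were 0.31 (95% interval -0.40 to 1.02) and -0.03 (95% interval -0.69 to 0.64).

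**Figure D2:**
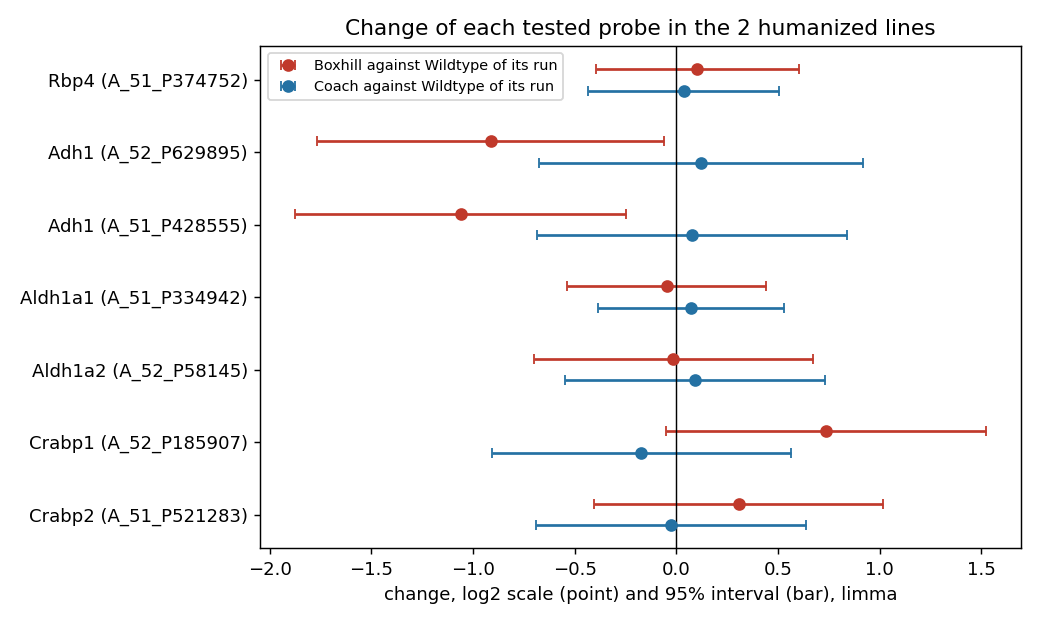
Change of each tested probe on the log2 scale (x axis), knock-in minus Wildtype of the same run, with its 95% interval from limma; red is Boxhill and blue is Coach. The 2 Adh1 intervals of Boxhill, -1.77 to -0.06 and -1.88 to -0.25, are the only ones of the 14 that leave out 0.

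Counted over the 7 tested probes, limma with Benjamini-Hochberg adjustment over all probes called 0 in Boxhill, where it called 0 of 29946 in all (0.0%). At an unadjusted p under 0.05 it called 2 of the 7, both Adh1, against 1849 of 29946 (6.17%), and the methods' t-test called 1 of the 7. In Coach it called 0 of the 7 after adjustment, against 4 of 29946 (0.0134%), and 0 at an unadjusted p under 0.05, against 519 (1.73%), and the methods' t-test also called 0. For the difference of the changes it called 0 of the 7 after adjustment, against 0 of 29946 (0.0%), and 1, the second Adh1 probe, at an unadjusted p under 0.05, against 892 (2.98%).

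The other genes of the pathway were listed by role. The array had a probe for 41 of the listed genes, and none for Cyp26c1. Of these 41 genes, 33 had a tested probe, 51 probes in all, and none passed the adjusted threshold in either line or for the difference. At an unadjusted p under 0.05, 1 probe was higher and 1 lower in Boxhill, and 1 higher and 1 lower in Coach, against 6.17% and 1.73% of all probes. For the difference of the changes 2 were higher and 2 lower, against 2.98% of all probes. The median change of the 51 probes was -0.02 in Boxhill and -0.03 in Coach, against -0.02 and 0.006 over all probes tested.

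Among genes of retinol carriage and uptake, Stra6, the receptor that takes up retinol from Rbp4, was at 1.04 ± 0.90 (mean level ± SD, n = 7) in Boxhill and 1.73 ± 0.66 (n = 7) in Wildtype. The change was -0.69 (limma p = 0.0312, adjusted p = 0.796). In Coach the Stra6 change was -0.18 (95% interval -0.76 to 0.40). Its mean level in run 2 was -2.78 in Coach and -2.60 in Wildtype, far below that in run 1, also between Wildtype arrays. Ttr, which carries Rbp4 in blood and is made in the choroid plexus, had changes of -2.01 in Boxhill (95% interval -4.89 to 0.87) and 2.06 in Coach (95% interval -0.64 to 4.75), with a difference of -4.07 (limma p = 0.0437, adjusted p = 1.0), and its level ran from -6.47 to 0.66 in Boxhill and from -4.14 to 3.14 in Coach. The mean of the 10 other tested choroid plexus genes had r = 0.963 with Ttr over the within-group deviations of the 30 arrays, and their single r ran from 0.631 (Aqp1) to 0.988. In Wildtype arrays the level of Ttr ran from -1.53 to 0.51 in run 1 and from -7.13 to 2.65 in run 2. Relative to the Wildtype mean of the run, the mean of those 10 genes ran from -1.97 to 0.33 over Boxhill arrays, against -0.32 to 0.77 over Wildtype arrays. In run 2 it ran from -0.71 to 2.78 over Coach arrays, against -1.03 to 2.71 over Wildtype arrays. The part of that list in the Ttr values was not tested.

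Among the dehydrogenases, Rdh13 had a change of 0.29 in Boxhill on 1 probe (limma p = 0.0156) and of 0.31 on its other, dimmer probe (limma p = 0.464). The dimmer Rdh13 probe was well above background on only 2 of 7 Boxhill arrays and 1 of 7 Wildtype arrays of run 1, so its change there is not a second measurement. Rdh5 had a change of 0.50 in Coach (limma p = 0.0314), and none of these passed the adjusted threshold. The Boxhill change minus the Coach change was -0.80 for Rdh5 (limma p = 0.0198) and 0.37 for the brighter Rdh13 probe (limma p = 0.0239). Aldh1a7, a close paralog of Aldh1a1 whose transcripts could share signal with it, had a change of 0.50 in Boxhill and -0.63 in Coach (limma p = 0.0237). The difference between these Aldh1a7 changes was 1.13 (limma p = 0.00681, adjusted p = 1.0). Cyp26b1, which breaks down retinoic acid, had a change of -0.51 in Boxhill (95% interval -1.21 to 0.20).

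The receptors that could be tested were Rarb, Rarg, Rxra, Rxrb and Rxrg, with 10 probes, and Rara was too dim. Their changes ranged from -0.12 to 0.26 in Boxhill and from -0.61 (1 of 3 probes of Rarg) to 0.18 in Coach, and none had an unadjusted p under 0.05. The genes known to respond to retinoic acid, 6 of 7 with a tested probe, had a median change of 0.03 in each line, and none of their 11 probes had an unadjusted p under 0.05.

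Whether Adh1 follows Aldh1a2 from array to array was asked of the deviations of each array from the mean of its own group, which leaves out genotype and run. Over the 30 arrays Pearson's r was 0.448 (two-sided permutation test within groups, p = 0.00879, adjusted p = 0.0165 over the 15 pairs of the 6 genes) and Spearman's rho was 0.472 (permutation p = 0.00928, adjusted p = 0.0155). Without the 2 arrays farthest in Aldh1a2 r was 0.511. With slide means removed as well, a choice made after values were seen, r was 0.505. In run 1 r was 0.536 (permutation p = 0.0356) and in run 2 it was 0.408 (permutation p = 0.141).

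Within single groups of 7 or 8 arrays, r ran from 0.169 to 0.874. In an exact permutation test it was 0.874 in the 7 Wildtype arrays of run 1 (p = 0.00198, adjusted over the 4 groups p = 0.00794) and 0.711 in the 8 Wildtype arrays of run 2 (exact p = 0.0350, adjusted p = 0.0700). In the knock-in arrays r was 0.169 in Boxhill (exact p = 0.725) and 0.240 in Coach (exact p = 0.583). Spearman's rho in the same order was 0.893, 0.857, 0.393 and 0.119, and with the 2 arrays farthest in Aldh1a2 left out r was 0.926, 0.723, 0.164 and -0.02. The difference between Wildtype and knock-in arrays was not tested. Wildtype 1 and Wildtype 6 had the highest Adh1 and also the highest Aldh1a2 of their group, and with both left out r over the other 28 arrays was 0.367 (permutation p = 0.0808), so the call did not hold without them.

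**Figure D3:**
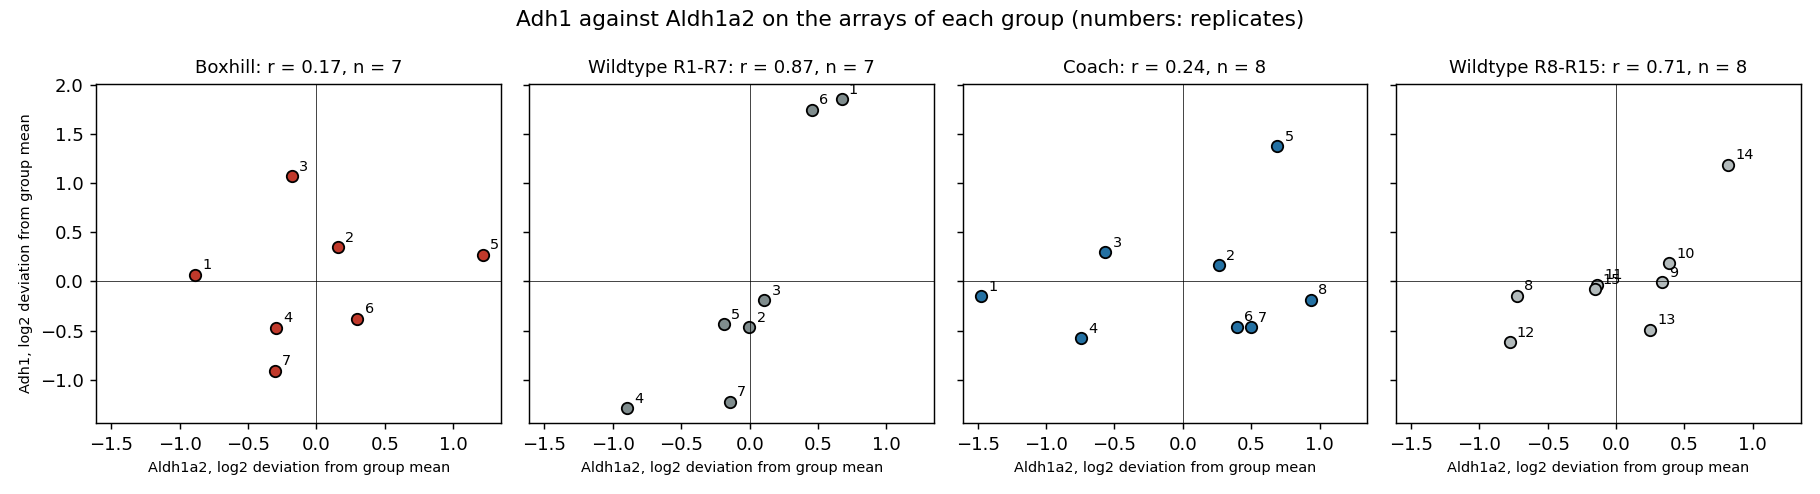
Deviation of Adh1 (first probe, y axis) against that of Aldh1a2 (x axis) from the group mean, both on the log2 scale, 1 panel per group and 1 point per array numbered by replicate. The points rise together in both Wildtype panels (r = 0.874 and 0.711) and scatter in Boxhill and Coach (r = 0.169 and 0.240). The difference between Wildtype and knock-in panels was not tested.

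The pairs of the 6 genes fell into a set that moved together and 2 genes that partly left it. Aldh1a2 moved with Crabp2 (r = 0.818), with Rbp4 (r = 0.751) and with Crabp1 (r = 0.558), with permutation p of 1e-05, the smallest these permutations can give, 2e-05 and 0.00552, and adjusted p of 0.00015, 0.00015 and 0.0118. Rbp4 with Crabp2 (r = 0.584), Crabp1 with Crabp2 (r = 0.555) and Rbp4 with Crabp1 (r = 0.514) also passed the threshold (permutation p = 0.00296, 0.00496 and 0.0101, adjusted p = 0.00888, 0.0118 and 0.0169). Spearman's rho of these 6 pairs was 0.516 to 0.809 (adjusted permutation p of 0.00015 to 0.0155), and without the 2 arrays farthest in the first gene of the pair r was 0.495 to 0.773. With slide means removed, r for these 6 pairs was 0.804, 0.764, 0.387, 0.611, 0.482 and 0.354 in the same order. Crabp2 was well above background on only 3 of 7 Boxhill and 4 of 7 Wildtype arrays of run 1. Its dim values entered every Crabp2 pair as read. The r of Aldh1a2 with Crabp2 was 0.691 in run 1 and 0.895 in run 2. The slide means of Crabp1 in run 2 ran from -1.54 to 0.04 and those of Aldh1a2 from 0.16 to 1.08. Their part in these values was not tested.

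Adh1 passed the threshold with Rbp4 as well as with Aldh1a2, and the difference between these correlations was not tested. The correlation of Adh1 with Rbp4 was 0.650 (permutation p = 5e-05, adjusted p = 0.00025), 0.714 in run 1 and 0.689 in run 2, and 0.642 without Wildtype 1 and Wildtype 6, the 2 arrays farthest in Adh1. Spearman's rho was 0.520 (permutation p = 0.00388, adjusted p = 0.0097). Adh1 did not pass the threshold with Crabp1 (r = 0.105), Crabp2 (r = 0.241) or Aldh1a1 (r = 0.0765). Aldh1a1 ran against Crabp1 (r = -0.524, permutation p = 0.0029, adjusted p = 0.00888; -0.732 in run 1, -0.443 in run 2 and -0.481 with slide means removed), with Spearman's rho of -0.564 (permutation p = 0.00134, adjusted p = 0.00503) and r = -0.531 without Wildtype 8 and Wildtype 10. With Crabp2 its r was -0.403 (permutation p = 0.0367, adjusted p = 0.0551) and its rho -0.458 (permutation p = 0.0150, adjusted p = 0.0225), so the call depends on the measure.

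**Figure D4:**
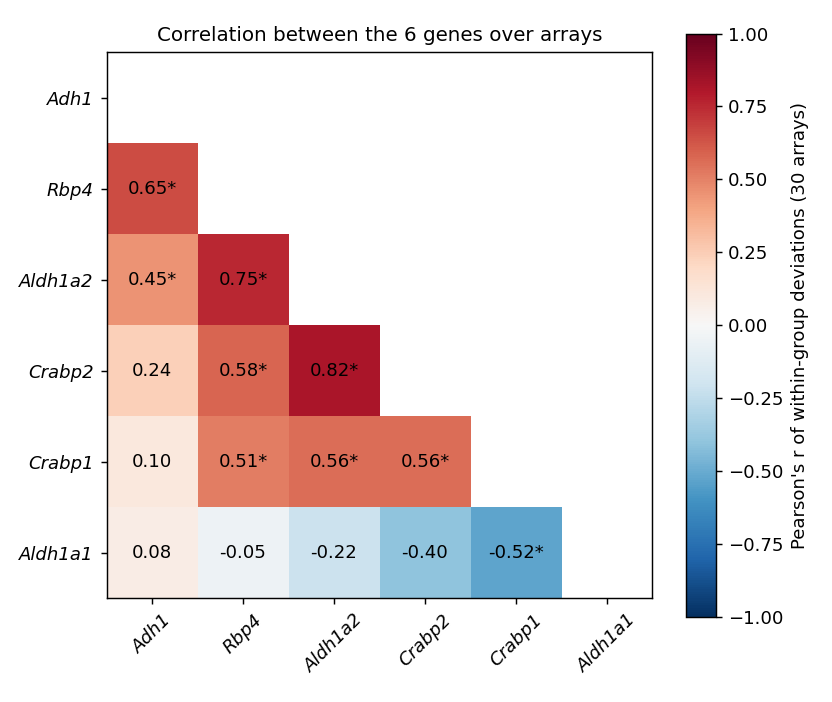
Pearson's r of within-group deviations over 30 arrays for the 15 pairs of the 6 genes (colour and number). An asterisk marks an adjusted permutation p under 0.05. Aldh1a2, Rbp4, Crabp2 and Crabp1 form a positive block, Adh1 has its highest r with Rbp4 (0.65), and Aldh1a1 is opposite to Crabp1 (-0.52).

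The genes whose deviations were most like those of Aldh1a2 over the 30 arrays were Mrgprf (r = 0.947), Mpzl2 (0.929), Slc6a13 (0.925), Slc6a12 (0.905), Foxc2 (0.903), Asgr1 (0.901), Cdh1 (0.874), Itih2 (0.874), Nupr1 (0.866) and Olfml2a (0.865). Slc6a13 and Slc6a12 transport GABA and betaine, and Foxc2 is a transcription factor of mesenchyme. Of 16 listed meningeal genes, 15 had r over 0.5 with Aldh1a2, with a median of 0.763, and Lum (r = 0.118) did not. Over all probes, 331 of 29816 (1.11%) had r over 0.5. The mean of the meningeal genes had r = 0.938 with Aldh1a2, and 0.941 with slide means removed. Its r was 0.768 with Rbp4, 0.782 with Crabp2, 0.469 with Crabp1 and 0.424 with Adh1. The mean of other lists lay closer to Crabp1 in size, with r of 0.659 for hypothalamic neurons, -0.700 for blood, -0.644 for endothelium, -0.543 for choroid plexus and -0.488 for mural cells. Aldh1a1 had r = 0.550 with blood. The arrays share depth and dissection, and these values are descriptions.

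Adh1 had other neighbours. Among the 10 genes most like it were 1190003J15Rik (r = 0.833), Gsta3 (0.812), Fbp1 (0.800), 1100001G20Rik (0.769), Pon1 (0.763), Apoc4 (0.749), Hamp (0.747), Serpina3m (0.735) and Apoa2 (0.733). Several are known from the liver: Fbp1 acts in the making of glucose, Pon1, Apoc4 and Apoa2 belong to blood lipoproteins, and Hamp encodes the iron hormone hepcidin. Asgr1 and Itih2, among the 10 genes most like Aldh1a2, are also known from the liver. In run 1 the r of these genes with Adh1 was 0.864 to 0.947, in run 2 it was 0.295 to 0.845, and without Wildtype 1 and Wildtype 6 it was 0.392 to 0.711.

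A list of 18 liver genes that leaves out these neighbours was written after they were seen, and 15 of its genes were tested. Of these, 8 (Alb, Ahsg, Ambp, Apoh, Hpx, Fgb, Apob and Apoa1) had r over 0.5 with Adh1, with a median of 0.540 for the 15, where 109 of 29815 of all probes (0.366%) had such an r. With Aldh1a2, none of the 15 did, and the median was 0.336. Of the meningeal genes, 0 of 16 had r over 0.5 with Adh1, with a median of 0.350. Only 4 of the 15 liver genes were above background on all arrays, and Alb, which encodes albumin, was above it on 6 of 7 Boxhill, 6 of 7 Wildtype arrays of run 1 and all arrays of run 2.

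The mean of the liver genes had r = 0.648 with Adh1, 0.643 with slide means removed, 0.530 without Wildtype 1 and Wildtype 6, and 0.354 in run 2. In run 2 the order turned, with r of 0.511 for the mean of the meningeal genes, 0.506 for dopamine neurons and 0.462 for tanycytes. Over both runs the mean of the meningeal genes had r = 0.424 with Adh1, 0.552 with slide means removed and 0.42 without Wildtype 1 and Wildtype 6. The mean of the liver genes had r = 0.39 with Aldh1a2, and 0.471 with slide means removed. With Rbp4, itself mainly a product of liver in the body, the mean of the liver genes had r = 0.588. Relative to Wildtype of the run, this mean was 1.40 on Wildtype 1 and 0.79 on Wildtype 6, the highest of their group, where the group ran from -1.18 to 1.40. In Boxhill it ran from -1.34 to 0.92 with a median of -0.34. Coach 5, with the highest Adh1 of its group, had the highest value of all, 2.27, while Wildtype 14, with the highest Adh1 of the Wildtype arrays of run 2, had -0.62. The 16 liver probes had a median change of -0.28 in Boxhill and 0.07 in Coach, against -0.02 and 0.006 over all probes tested. In Boxhill 14 of 16 were lower and none passed the adjusted threshold. At an unadjusted p under 0.05 limma called 2 of the 16 in Boxhill, against 6.17% of all probes. Wildtype 1 and Wildtype 6, high in liver genes, are part of that comparison. The part of the liver genes in the Adh1 values was not tested.

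**Figure D5:**
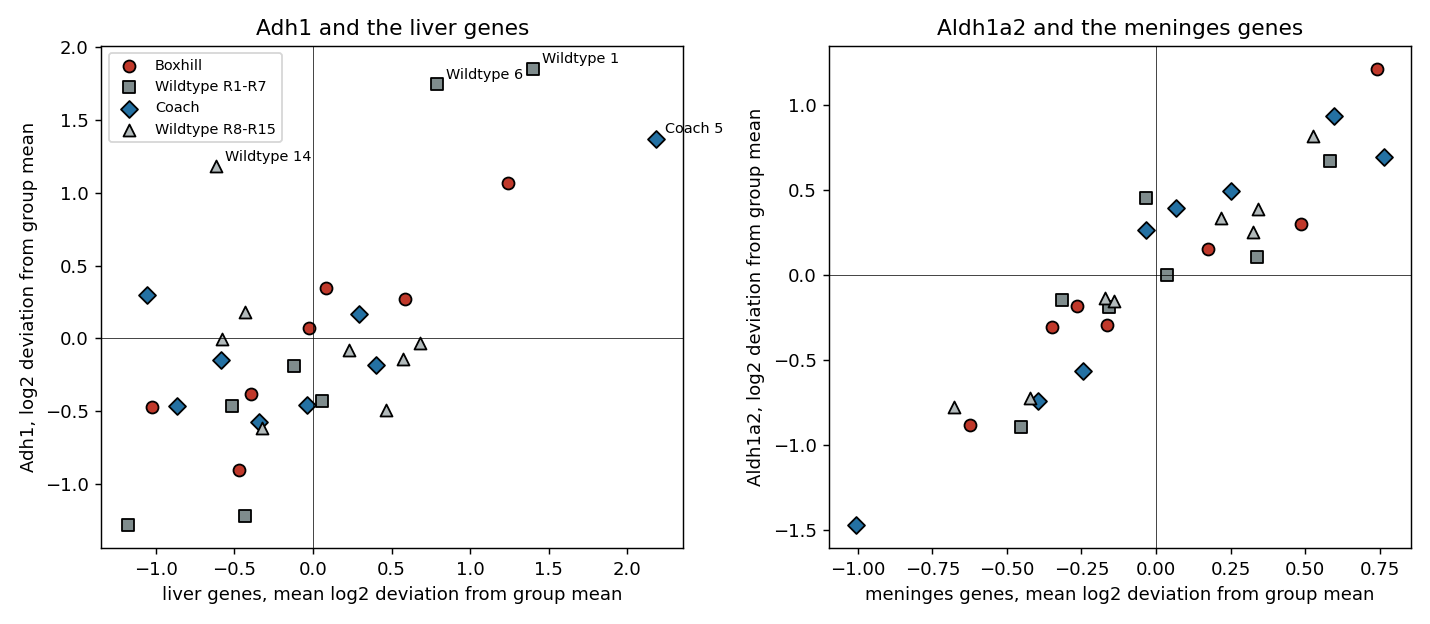
Left, deviation of Adh1 (y axis) against the mean deviation of 15 liver genes (x axis); right, deviation of Aldh1a2 against the mean deviation of 16 meningeal genes, all on the log2 scale from the group mean, 1 point per array. Aldh1a2 follows the meningeal genes closely (r = 0.938), Adh1 follows the liver genes more loosely (r = 0.648), and Wildtype 14 has high Adh1 with low liver genes.

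The other marker lists held no gene with r over 0.5 with Adh1: choroid plexus (11 genes tested), tanycytes (7), endothelium (5), mural cells (5), hypothalamic neurons (13), dopamine neurons (4), anterior pituitary (6), blood (3) and kidney (5, a list also written after values were seen). Their medians of r with Adh1 ran from -0.34 in endothelium to 0.24 in blood. With Aldh1a2, 1 gene of these lists, Col23a1 of the tanycytes (r = 0.540), was over 0.5, and the medians ran from -0.46 in endothelium to 0.24 in hypothalamic neurons. Among the retinoid receptors, Rxrg (r = 0.575) was over 0.5 with Aldh1a2, and no receptor was with Adh1.

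The sequence before the start of Adh1 and of Aldh1a2 is shown because this is the pair whose levels were compared. The set of RefSeq starts used here (GRCm38.p6) held 5 of the 6 genes, Crabp2 being the other, and 7 starts in all. The 250 bases before each start are printed 5′ to 3′ on the strand of the gene, at chr3:138277335-138277584 for Adh1 and chr9:71215539-71215788 for Aldh1a2.
Adh1: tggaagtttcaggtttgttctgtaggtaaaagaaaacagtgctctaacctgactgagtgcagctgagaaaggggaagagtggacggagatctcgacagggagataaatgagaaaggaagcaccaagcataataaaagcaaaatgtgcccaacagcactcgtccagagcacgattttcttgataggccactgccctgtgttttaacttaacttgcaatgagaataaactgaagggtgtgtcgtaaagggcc
Aldh1a2: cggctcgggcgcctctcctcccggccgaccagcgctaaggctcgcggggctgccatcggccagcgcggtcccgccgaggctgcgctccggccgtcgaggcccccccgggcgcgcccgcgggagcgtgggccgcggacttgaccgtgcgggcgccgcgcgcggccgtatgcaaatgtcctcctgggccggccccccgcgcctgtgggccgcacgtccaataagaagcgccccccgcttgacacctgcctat
The share of G and C was 44.8% before Adh1 and 77.6% before Aldh1a2. Half-sites of the kind that retinoic acid receptors bind in pairs were searched on both strands and would have been in capitals. The letters searched were AGGTCA, its close relative AGTTCA, a second relative GGGTCA, and lastly the relative GGTTCA. Neither stretch held one, where 12694 of the 32851 stretches in the table (38.6%) held at least 1. Of the 7 stretches of these genes, 2 held one, 1 of Aldh1a1 and 1 of Rbp4. A pair of half-sites in the same direction, 1, 2 or 5 bases apart, was found in 0 of the 7 and in 0.426% of all.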

How the data were processed

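The authors deposited the background-subtracted intensity of 43379 spots per array, taken from the Agilent image software without scaling across arrays. They also deposited log2 values shifted to the 75th percentile. Set against the intensities, each probe's values turned out to have its median over the run taken off as well, and they served as an alternative. Outlier spots (36 to 117 per array) were left out, and no spot was saturated. The log2 intensity was set relative to its array's 75th percentile and averaged over the spots of a probe. limma 3.58.1 (R 4.3.3) fitted genotype and run to the 30 arrays, with Benjamini-Hochberg adjustment over all 29946 tested probes at 0.05. The number of arrays limits the precision. The fit was tested on simulated data.

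Correlations used the brighter Adh1 probe and 100000 permutations within groups, or all permutations within a group (Python 3.11.15, numpy 2.4.6, scipy 1.17.1). A marker list's mean is over its genes' log2 levels minus the Wildtype mean of the run, with the brightest probe of each gene. Named were all probes of the 6 genes, pathway genes with an unadjusted p under 0.05 or a change of 0.5 or more, Aldh1a7, Stra6, Ttr and the receptors, and the 10 genes most like Adh1 and most like Aldh1a2, some of which are not reported here. The genes and lists were chosen with earlier results of these data known. Positions are those of the array annotation of run 1.

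Alternatives were a fit within each run, a block for replicate numbers, slide as a random or fixed block, and normexp with an offset of 50 on median signals (run 2 holds no mean signals). Others were quantile normalization, the 75th percentile taken over probes above background on all arrays, and the authors' table. Also run were other filters, outlier spots kept, other variances, the methods' t-test and each array left out. The liver and kidney lists, the fits without Wildtype 1 and 6, and slide means removed from correlations were added after values were seen.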

Additional observations from a re-analysis of the deposited data

Results flagged for a closer look

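Among the 28 sets formed by 7 probes and 4 groups, 3 values stood far from the rest of their group by Dixon's test, where chance gives about 1 in 20 sets. All were of Adh1, on Coach 5 and Wildtype 14. This is a pair of arrays that carried the same barcode and position under different scans, kept here as separate arrays. The first and the second Adh1 probe share bases, so their sets are not independent. Coach 5 was at -1.32 on the first Adh1 probe, with the next array of its group at -2.39, and at -2.65 on the second, with the next at -3.97. Wildtype 14 was at -1.63 on the first Adh1 probe, with the next array at -2.63. Coach 5 was the dimmest array and had the highest mean of liver genes, and Wildtype 14 had the highest mean of pituitary genes. Their part in the Adh1 values was not tested. Wildtype 1 and Wildtype 6 are not found by this test, since they lie close to each other.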

How the results depend on the processing

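No probe of the 6 genes passed the adjusted threshold under any alternative run. Of 890 recomputed changes, 839 kept their direction and 51 did not, 45 of these with 1 array left out, and those 51 had a size of at most 0.173 as reported. The Aldh1a2 change in Boxhill was 0.0063 with the slide as a random block, 0.0332 with it as a fixed block, 0.0075 with normexp and 0.21 without Wildtype 1 and 6, where the difference of the Aldh1a2 changes was 0.12. The Adh1 change in Coach on the second probe was -0.0282 with normexp. The cause was not tested.

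The count of the 7 probes with an unadjusted p under 0.05 in Boxhill, 2 as reported, was 3 with the slide as a random block and with quantile normalization, 1 with the 5 probes above background on every array (fewer probes tested), 1 by the methods' t-test and 0 without Wildtype 1 and 6. For the difference of the changes, 1 as reported, it was 2 with the slide as a random block and 0 with normexp, with quantile normalization, with probes above background on every array and without Wildtype 1 and 6. Over all probes, the unadjusted count in Boxhill, 1849, was 3272 with the arrays of the run alone, 3296 and 4000 with the slide as a random and a fixed block, and 3120 by the methods' t-test. In Coach, 519, it was 225 with the arrays of the run alone, 901 and 858 with the slide as a random and a fixed block, 243 with normexp and 295 by the methods' t-test. For the difference, 892, it was 1713 and 2100 with the slide as a random and a fixed block and 583 with normexp. The adjusted count in Coach, 4, was 0 with the arrays of the run alone and by the methods' t-test, 9 with the slide as a random block, 8 with trend and robust variances, and 7 with normexp, with probes above background on every array and with outlier spots kept.

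The replicate numbers did not pair the Boxhill and Wildtype arrays: same-numbered deviations had r from -0.28 to 0.40, over 0.1 in 2 of 7 pairs, and 1 array of 7 was closest to its own number. With the replicate number as a block, 3465 probes had an unadjusted p under 0.05, 2 of them of these genes, the second Adh1 probe (limma p = 0.0413, adjusted p = 0.43) and Crabp1 (limma p = 0.0282, adjusted p = 0.43). Coach and its Wildtype arrays share only 1 number, so that fit was not possible there.

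The correlation of Adh1 with Aldh1a2, 0.448, was 0.408 in run 2, 0.169 in Boxhill, 0.240 in Coach and 0.367 without Wildtype 1 and 6, none of these past the threshold, and 0.39 to 0.49 with 1 array left out.

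With each array left out in turn, the unadjusted count of these 7 probes in Boxhill was 1 to 3, at 1 without Boxhill 6, Boxhill 7 or Wildtype 1, and for the difference it was 0 to 2 and moved without 17 of the 30 arrays. The count over all probes in Boxhill was 0 to 3 after adjustment (2 without Boxhill 5, 3 without Wildtype 7) and 806 to 2913 unadjusted (806 without Boxhill 3, 863 without Boxhill 5, 949 without Boxhill 6 and 2913 without Boxhill 1). In Coach it was 2 to 8 after adjustment (2 without Coach 4 or Wildtype 8, 7 without Wildtype 9 or Wildtype 11, 8 without Coach 7) and 350 to 1555 unadjusted (1324 without Coach 7, 1555 without Wildtype 13). For the difference it was 0 to 2 after adjustment (2 without Boxhill 5) and 533 to 1419 unadjusted (534 without Boxhill 3, 533 without Boxhill 5, 1356 without Wildtype 13 and 1419 without Boxhill 1). The Boxhill change of Adh1 stayed below 0, from -1.13 to -0.60 on the first probe and from -1.25 to -0.77 on the second, each closest to 0 without Wildtype 1. That of Rbp4 was 0.01 to 0.21, of Aldh1a1 -0.1388 to 0.0155, of Aldh1a2 -0.2171 to 0.1331, of Crabp1 0.56 to 0.86 and of Crabp2 0.12 to 0.49. In Coach the change of Adh1 was -0.0746 to 0.2908 and -0.1472 to 0.2494, both below 0 without Coach 5, and that of Rbp4 was -0.1347 to 0.1486, of Aldh1a1 -0.0691 to 0.2262, of Aldh1a2 -0.0412 to 0.3037, of Crabp1 -0.3513 to 0.0645 and of Crabp2 -0.1811 to 0.1745. The difference of the changes was -0.2737 to 0.0216 for Aldh1a1, -0.0450 to 0.2382 for Rbp4 and -0.3184 to 0.0402 for Aldh1a2. Signal over background limits Crabp2 in run 1 and most liver genes.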
